A study of Homo sapiens with 8 samples.

Results

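The Wnt target and feedback genes are 10 genes that the Wnt pathway switches on and that, in part, switch it off again. They are AXIN2, RNF43, ZNRF3, NKD1, APCDD1, LGR5, ASCL2, LEF1, TCF7 and MYC. The list was drawn up by name with earlier results of these data known, and all 10 were found among the 58302 gene rows of the count table. RNA sequencing compared DLD1 cells that stably overexpressed wild-type TRMT6/61A (OE-WT) with DLD1 cells that carried the vector (CTRL), with 2 libraries per group. TRMT6 and TRMT61A form the enzyme that writes N1-methyladenosine on tRNA. DLD1 is a human colorectal cancer line, both groups were made with lentiviral vectors, and both carry the mutant APC of the line. The sources used here do not state whether the stable cells were pools or clones. RNA came from the supernatant of a lysate cleared by centrifugation after a cycloheximide wash. The labels list each library in 2 lanes, which the table does not separate, so each library counted as 1 replicate. The design text speaks of duplicate cultures, and of separate groups for each gene where the labels give 1 joint group. How the duplicates were kept apart is not given in the sources used here, so the p-values measure the spread between these libraries, which may be technical.

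In the Wnt pathway, a secreted Wnt protein binds a Frizzled receptor and its co-receptor LRP5 or LRP6 and stops a complex of AXIN, APC and the kinases GSK3 and CK1 from marking β-catenin for destruction. β-catenin then enters the nucleus and binds the TCF/LEF factors, and their target genes are transcribed. In the intestinal crypt this program maintains stem cells, and mutant APC keeps it active in most colorectal cancers. The mRNA of such targets is often read as a measure of the activity of the pathway, and several of them are brakes on it.

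Of the 10 genes, 4 rose in OE-WT cells and the other 6 were not called. LEF1 rose most of the 10, by 2.15-fold, followed by LGR5 at 1.68-fold, ASCL2 at 1.58-fold and NKD1 at 1.47-fold. For AXIN2, RNF43, ZNRF3, TCF7, APCDD1 and MYC the adjusted p lay between 0.103 and 0.873. Calls used edgeR's quasi-likelihood test at a Benjamini-Hochberg adjusted p below 0.05 across the 14133 genes that passed a filter on low counts. At this threshold 21.1% of all genes tested were called, with 9.44% of all genes higher and 11.6% lower. None of the 10 genes was called lower, and at an unadjusted p below 0.05 edgeR's quasi-likelihood test gave 5 higher and 0 lower. DESeq2's Wald test called 3 higher and 0 lower. The median log2 fold change of the 10 genes was 0.14, against 0.01 over all genes tested. Past an unadjusted p of 0.05 and an absolute log2 fold change of 1, the thresholds of the study's methods, stood LEF1 alone, where 3.15% of all genes stood. The libraries of the 2 groups did not overlap for 5 of the 10 genes, and for 60.2% of all genes tested.

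**Figure D1:**
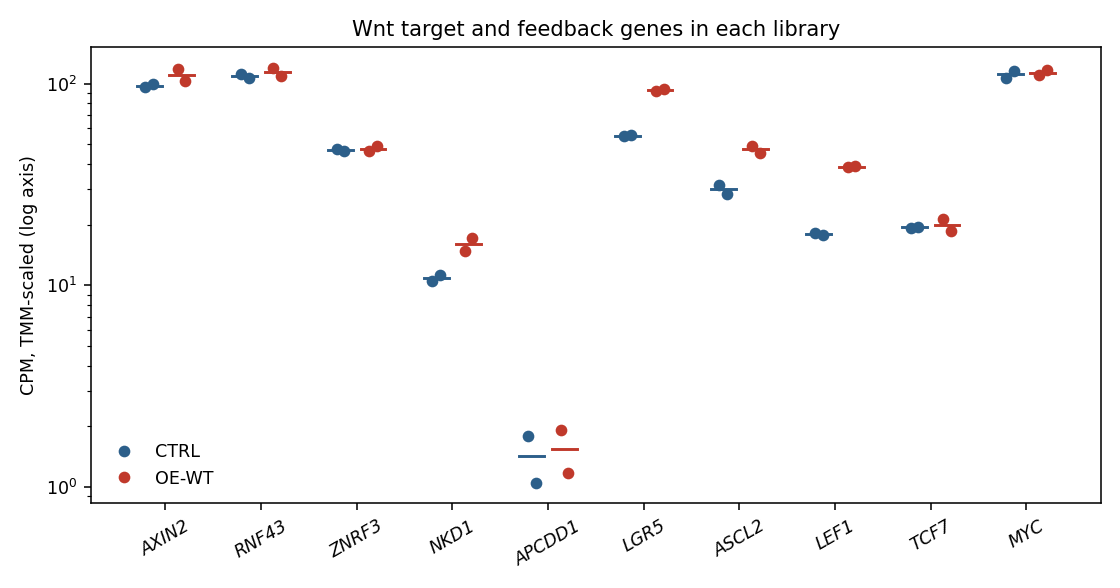
CPM (counts scaled to library size by TMM, log axis) of the 10 genes in each library. Points are libraries, 2 per group, and bars are group means. LEF1, LGR5, ASCL2, NKD1 and AXIN2 have both OE-WT libraries above both CTRL libraries, and in the other 5 genes the groups overlap.

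The libraries held between 10327498 and 12379671 counts on genes. TRMT6, the check of the labels, had 210.3 and 180.6 CPM (counts scaled to library size) in OE-WT against 52.5 and 55.3 in CTRL libraries, and TRMT61A had 137.2 and 130.2 against 58.8 and 56.7. Of 10 markers of colon epithelium, EPCAM, CDH1, KRT8, KRT18, KRT19, CDX2 and CDH17 were at 95.3 CPM or more in every library. VIL1 and LGALS4 were at 4.52 CPM or less, and CDX1 had at most 1 count. No library held more than 30 counts of any of the 12 markers of fibroblasts, leukocytes and endothelium. Their summed levels ranged from 2.45 to 3.22 CPM in OE-WT and 2.27 to 2.40 in CTRL for fibroblast markers, from 0.302 to 0.392 and 0.233 to 0.324 for leukocyte markers, and from 0.589 to 0.804 and 1.13 to 2.33 for endothelial markers. COL1A2, DCN, CD3E and CDH5 were at 0 in every library.

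The TCF/LEF factors bind DNA for β-catenin, and LEF1 and TCF7 are the members of this family that are themselves induced as targets. LEF1 (ENSG00000138795, GRCh38 chromosome 4, 108047545 to 108168956, minus strand) had 38.5 and 38.9 CPM in the OE-WT libraries and 18.2 and 17.8 CPM in the CTRL libraries. Both OE-WT libraries lay above both CTRL libraries, and the group means were 38.7 ± 0.305 and 18.0 ± 0.234 CPM (SD, n = 2 each). The log2 fold change was 1.11 (standard error, SE, 0.10, 95% interval 0.90 to 1.31, edgeR quasi-likelihood adjusted p = 9.36e-08). Of the 14133 genes tested, 0.651% had a larger log2 increase. When any 1 library was left out, the log2 fold change of LEF1 ranged from 1.09 to 1.12.

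TCF7 (ENSG00000081059, chromosome 5, 134114681 to 134151865, plus strand) encodes TCF1. It had 21.3 and 18.6 CPM in the OE-WT libraries and 19.3 and 19.4 CPM in the CTRL libraries, and both CTRL values lay between the OE-WT values. The log2 fold change was 0.04 (95% interval -0.20 to 0.29, adjusted p = 0.836 from the same test). A change as large as that of LEF1 lies outside this interval. Reads of LEF1 and TCF7 were also set against each other within each library, which removes any scaling between libraries. The table held 1.81 and 2.09 counts of LEF1 for each count of TCF7 in OE-WT libraries against 0.940 and 0.917 in CTRL. Both OE-WT ratios lay above both CTRL ratios. These are ratios of counts of genes that differ in length, so they compare libraries and do not rank the level of LEF1 against that of TCF7.

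The RefSeq promoter windows of this pair are shown because both genes have starts from which shorter proteins are made, and the gene counts do not separate the starts. RefSeq windows (GRCh38.p14, 250 bases before to 50 after a start, 5′ to 3′) were found for 4 of the 10 genes, LEF1, TCF7, RNF43 and APCDD1, in 6 windows. The windows of AXIN2, LGR5, ASCL2, ZNRF3, NKD1 and MYC were not used here. The LEF1 start lies 2655 bases downstream of the 5′ end of the gene in GENCODE, and the TCF7 starts lie 932 and 8937 bases downstream of theirs. Capitals mark a TCF/LEF motif. The letters searched, on both strands, were CTTTGAT (in 2.62% of the 35116 RefSeq windows of this length), CTTTGAA (in 4.43%), CTTTGTT (in 5.20%) and CTTTGTA (in 2.77%), and 13.8% of windows held at least 1 of them.
LEF1, chr4:108166252-108166551, minus strand: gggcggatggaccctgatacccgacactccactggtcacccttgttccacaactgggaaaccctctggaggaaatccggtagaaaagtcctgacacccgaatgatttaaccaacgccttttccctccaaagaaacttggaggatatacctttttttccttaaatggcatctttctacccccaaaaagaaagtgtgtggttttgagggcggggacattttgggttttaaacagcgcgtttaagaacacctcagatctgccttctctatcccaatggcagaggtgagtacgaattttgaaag
TCF7, first window, chr5:134115363-134115662, plus strand: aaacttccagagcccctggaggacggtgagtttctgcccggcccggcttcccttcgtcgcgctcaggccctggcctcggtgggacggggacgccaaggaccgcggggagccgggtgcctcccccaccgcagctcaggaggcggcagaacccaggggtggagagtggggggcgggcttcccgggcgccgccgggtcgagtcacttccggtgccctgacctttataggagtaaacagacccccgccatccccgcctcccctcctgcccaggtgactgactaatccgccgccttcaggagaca
TCF7, second window, chr5:134123368-134123667, plus strand: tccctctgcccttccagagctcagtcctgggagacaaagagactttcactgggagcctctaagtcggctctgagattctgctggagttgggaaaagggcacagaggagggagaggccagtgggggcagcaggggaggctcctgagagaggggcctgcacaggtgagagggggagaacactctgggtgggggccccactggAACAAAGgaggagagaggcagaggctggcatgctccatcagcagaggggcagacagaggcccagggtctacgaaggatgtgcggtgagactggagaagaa
The second TCF7 window holds CTTTGTT on its minus strand, printed as AACAAAG, and the leftmost base of these letters is 50 bases before the start. None of these letters occur in the LEF1 window or in the first TCF7 window, nor in the windows of RNF43 and APCDD1. The 5′ ends of LEF1 and TCF7 in GENCODE lie outside these windows, so the sequence there was not searched. A motif was thus in 1 of the 6 windows, and in 13.8% of all windows.

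LGR5 and ASCL2 mark the stem cells at the base of the intestinal crypt. Of the 16 other Wnt targets tested and read below, 2 rose (SLC12A2 and CCND1) and 5 fell (CD44, JUN, BAMBI, EPHB3 and PPARD). Their called share was 43.8%, against 21.1% of all genes. SOX9, a crypt transcription factor of another list, was also called higher. OLFM4 and SMOC2 had 0 counts in every library of both groups, so they show no change in either direction. Whether the rise of LGR5 and ASCL2 belongs to a stem cell program was not tested. LGR5 is a receptor for R-spondins, the secreted proteins that strengthen Wnt signals, and ASCL2 is a transcription factor that keeps crypt cells in the stem cell state. LGR5 (ENSG00000139292, chromosome 12, 71439798 to 71586310, plus strand) had 91.6 and 93.5 CPM in OE-WT libraries and 54.9 and 55.5 CPM in CTRL libraries. The groups lay far apart relative to their spread, with means of 92.5 ± 1.33 and 55.2 ± 0.402 CPM (SD, n = 2 each). The log2 fold change was 0.75 (SE 0.07, 95% interval 0.60 to 0.89, edgeR quasi-likelihood adjusted p = 2.24e-07), and 2.38% of genes tested had a larger one.

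ASCL2 (ENSG00000183734, chromosome 11, 2268498 to 2270588, minus strand) had 49.1 and 45.4 CPM in OE-WT libraries and 31.6 and 28.2 CPM in CTRL libraries. The lower OE-WT library still exceeded the higher CTRL library, and the means were 47.2 ± 2.58 and 29.9 ± 2.39 CPM (SD, n = 2 each). The log2 fold change was 0.66 (SE 0.09, 95% interval 0.47 to 0.85, adjusted p = 2.35e-05 from the same test). LEF1, LGR5 and ASCL2 were called higher in all 7 other fits and with each of the 4 libraries left out.

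MYC, a transcription factor that drives growth and a β-catenin target in colorectal cells, was not called. MYC (ENSG00000136997, chromosome 8) had 109.7 and 116.7 CPM in OE-WT libraries and 107.1 and 115.5 CPM in CTRL libraries. The groups interleaved, and the log2 fold change was 0.03 (95% interval -0.12 to 0.17, edgeR quasi-likelihood adjusted p = 0.838). Within a library, each count of AXIN2 was matched by 0.931 and 1.14 counts of MYC in OE-WT and by 1.11 and 1.17 in CTRL libraries, which overlap.

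**Figure D2:**
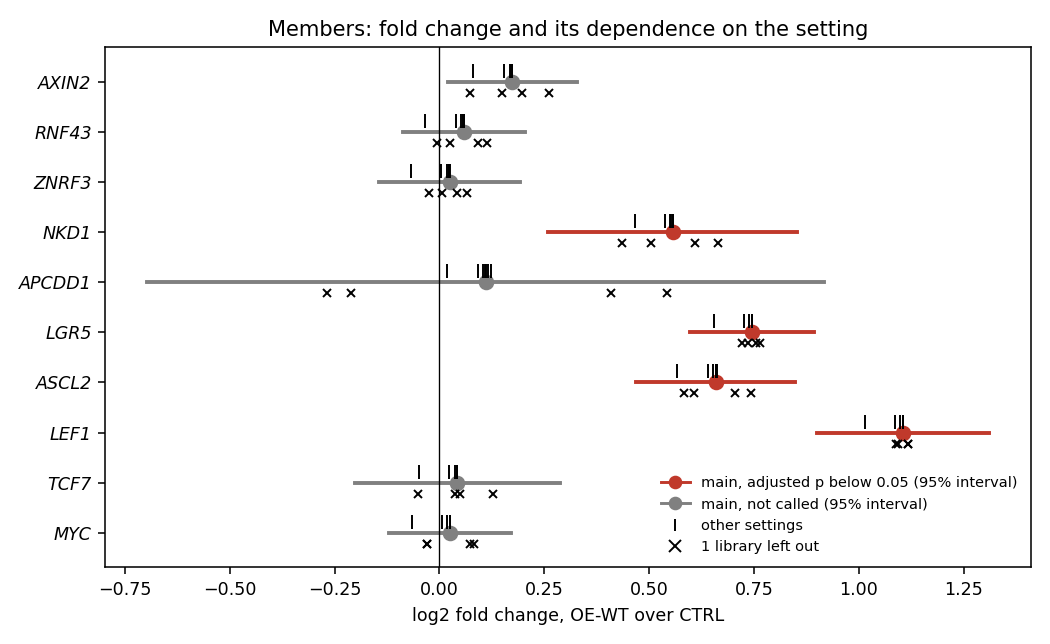
Log2 fold change of each gene, OE-WT over CTRL, with its 95% interval (bars, red where the adjusted p is below 0.05). Upper ticks are 7 other settings of the fit and lower crosses are fits with 1 library left out. LEF1, LGR5, ASCL2 and NKD1 stay above 0 throughout, the values of RNF43, ZNRF3, TCF7, APCDD1 and MYC fall on both sides of 0, and AXIN2 stays above 0 but near it.

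The feedback inhibitors divided in the same way. NKD1, which binds Dishevelled and dampens the signal inside the cell, was the inhibitor that rose. NKD1 (ENSG00000140807, chromosome 16, 50548396 to 50649249, plus strand) had 147 and 175 counts in OE-WT libraries and 135 and 139 in the deeper CTRL libraries, or 14.8 and 17.2 CPM against 10.5 and 11.3 CPM. The groups did not overlap, and the log2 fold change was 0.56 (SE 0.14, 95% interval 0.26 to 0.85, edgeR quasi-likelihood adjusted p = 0.00754). The call was lost without OE-WT replicate 2 (log2 fold change 0.43, adjusted p = 0.0658) and with DESeq2's Wald test (adjusted p = 0.0661), and over the 7 other settings the adjusted p ranged from 0.00214 to that value.

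AXIN2, the inducible scaffold of the β-catenin destruction complex and a common reporter of the pathway, was not called. AXIN2 (ENSG00000168646, chromosome 17, 65528563 to 65561648, minus strand) had 117.8 and 102.4 CPM in OE-WT libraries and 96.1 and 99.2 CPM in CTRL libraries. The 2 OE-WT libraries were above the CTRL libraries, but 1 of them by little, and the OE-WT spread was the wider one (110.1 ± 10.9 against 97.6 ± 2.15 CPM, SD, n = 2 each). The log2 fold change was 0.17 (95% interval 0.02 to 0.33, edgeR quasi-likelihood adjusted p = 0.103). AXIN2 was called without OE-WT replicate 2, with a log2 fold change of 0.26 and an adjusted p of 0.0178. Leaving out any other library gave an adjusted p of 0.122 to 0.663, and over the 7 other settings it ranged from 0.104 to 0.541.

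RNF43 and ZNRF3 are related ubiquitin ligases of the cell surface that remove Frizzled receptors, and LGR5 with R-spondin opposes them. RNF43 (ENSG00000108375, chromosome 17, 58353676 to 58417595, minus strand) had 119.2 and 108.7 CPM in OE-WT libraries and 112.0 and 106.9 CPM in CTRL libraries. ZNRF3 (ENSG00000183579, chromosome 22, 28883572 to 29057488, plus strand) had 46.3 and 48.7 CPM in OE-WT libraries and 47.3 and 46.1 CPM in CTRL libraries. The groups overlapped for both ligases. The log2 fold change was 0.06 for RNF43 (95% interval -0.09 to 0.20, edgeR quasi-likelihood adjusted p = 0.606) and 0.02 for ZNRF3 (95% interval -0.14 to 0.19, adjusted p = 0.866). The ligases kept similar proportions, with 2.58 and 2.23 counts of RNF43 per count of ZNRF3 in OE-WT libraries against 2.37 and 2.32 in CTRL. By contrast, there were 0.777 and 0.913 counts of LGR5 per count of AXIN2 in OE-WT libraries against 0.571 and 0.560 in CTRL.

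APCDD1, a membrane glycoprotein that inhibits the pathway at the receptor, was close to the limit of detection. APCDD1 (ENSG00000154856, chromosome 18, 10454635 to 10489949, plus strand) had 19 and 12 counts in OE-WT libraries against 23 and 13 in CTRL. A difference was not detectable at this depth, since the 95% interval of the log2 fold change ran from -0.70 to 0.92 (adjusted p = 0.873 from the same test).

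**Figure D3:**
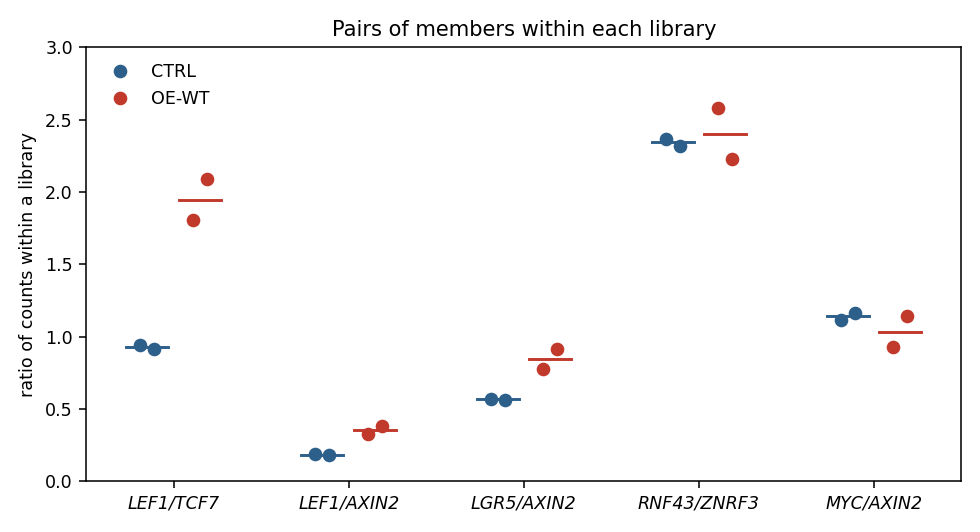
Counts of one gene per count of another within each library (points, 2 libraries per group, bars are group means). LEF1/TCF7, LEF1/AXIN2 and LGR5/AXIN2 are higher in both OE-WT libraries, while RNF43/ZNRF3 and MYC/AXIN2 overlap between the groups. Pairs other than RNF43/ZNRF3 were chosen after their values were seen.

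Levels were compared between genes as CPM per kb of exons. In CTRL cells ASCL2 was the highest at 20.1 ± 1.61 CPM per kb (SD, n = 2), and AXIN2 (18.8 ± 0.414), MYC (18.2 ± 0.980) and RNF43 (17.3 ± 0.577) followed. ASCL2, AXIN2 and MYC did not differ from their neighbours in this order beyond their spread, nor did MYC and RNF43. LGR5 came next at 10.6 ± 0.0771 CPM per kb, then ZNRF3 at 6.68 ± 0.124, LEF1 at 3.36 ± 0.0436 and TCF7 at 1.92 ± 0.00885, each apart from the next by more than its spread. NKD1 at 0.626 ± 0.0321 and APCDD1 at 0.239 ± 0.0871 CPM per kb were the lowest. In OE-WT cells ASCL2 stood at 31.8 ± 1.74 CPM per kb, above AXIN2 at 21.2 ± 2.10. LGR5 reached 17.7 ± 0.254, which did not differ from RNF43 at 18.0 ± 1.18 beyond their spread, and MYC stood at 18.5 ± 0.813 with both libraries above both of LGR5. LEF1 reached 7.22 ± 0.0569 and exchanged places with ZNRF3 (6.80 ± 0.253). With the length of the longest transcript in place of all exons, MYC was first in CTRL cells at 29.9 CPM per kb, and ASCL2 at 20.1 came after AXIN2 at 22.9, so the order at the top depends on which exons are counted. By that length, OE-WT cells had ASCL2 at 31.8, MYC at 30.4, AXIN2 at 25.8, RNF43 at 20.4 and LGR5 at 20.2 CPM per kb.

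Genes that overlap the 10 genes on the other strand were read because the strand setting of the counting is not given in the sources used here. TSPAN8, which overlaps LGR5, had between 2755 and 4383 counts per library, more than LGR5 itself, with a log2 fold change of -0.07 (adjusted p = 0.624). SKP1, which overlaps TCF7, had between 1685 and 2244 counts per library, up to 987% of those of TCF7. Its log2 fold change was 0.06 (edgeR quasi-likelihood adjusted p = 0.569). TSPOAP1-AS1, which overlaps RNF43, held at most 54.8% of the counts of RNF43 in any library, with a log2 fold change of 0.20 (adjusted p = 0.0764 from the same test). LEF1-AS1 held at most 16.8% of the counts of LEF1 in any library, with a log2 fold change of 0.68 (edgeR quasi-likelihood adjusted p = 0.0564). None of the 4 overlapping genes was called, and the share of their reads that could belong to LGR5, TCF7, RNF43 or LEF1 was not tested.

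**Figure D4:**
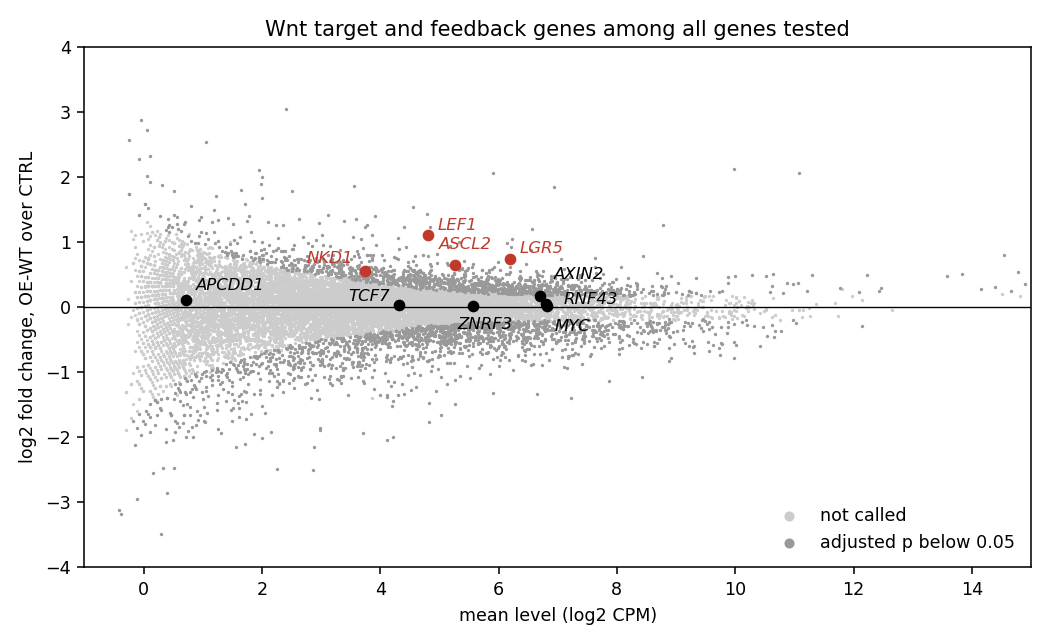
Log2 fold change, OE-WT over CTRL, against mean level (log2 CPM) of the 14133 genes tested, dark grey where the adjusted p is below 0.05. LEF1, LGR5, ASCL2 and NKD1 (red) lie above 0 among the called genes of their level, and the 6 other genes of the group (black) lie close to 0. Outside the axes lies 1 gene.

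The rest of the pathway was read from 6 lists of 114 genes in all, of which 85 passed the filter. Of these 85 genes, 4 rose and 23 fell, and the median log2 fold change was -0.04. The share called was 31.8%, against the 21.1% of all genes (9.44% higher and 11.6% lower). The lists of ligands, receptors and antagonists, which act upstream of β-catenin, held 12, 15 and 4 tested genes. None of these rose, where 9.44% of all genes rose, and edgeR's likelihood ratio test called 1 receptor gene higher.

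Of 21 genes for Wnt ligands and their secretion, 12 passed the filter and 3 fell, a called share of 25% that is close to the 21.1% of all genes. By edgeR's quasi-likelihood test none rose, also at an unadjusted p below 0.05, and DESeq2's Wald test called none in either direction. WNT7B, a ligand, had 4.32 and 3.92 CPM in OE-WT libraries against 7.60 and 7.21 CPM in CTRL, a log2 fold change of -0.84 (edgeR quasi-likelihood adjusted p = 0.00422, 0.0564 with DESeq2's Wald test). PORCN, which attaches the lipid that Wnt proteins need for secretion, had 9.05 and 9.12 against 14.2 and 12.5 CPM, a log2 fold change of -0.55 (adjusted p = 0.0122). Without CTRL replicate 1 the call of PORCN was lost (log2 fold change -0.46, adjusted p = 0.122), and with DESeq2's Wald test the adjusted p was 0.0983. The other ligand gene that fell, WNT4, was named after its value was seen and had 2 and 3 counts against 25 and 13 (adjusted p = 0.00332). WNT4 passed the filter through the CTRL libraries alone. With at least 10 counts required in every library WNT4 was not tested, and 2 of the 10 ligand genes tested were called lower. The call of WNT4 was lost without CTRL replicate 1 (adjusted p = 0.128), and DESeq2 gave it no adjusted p. Of this list, WNT7B alone was called without CTRL replicate 1.

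Of 21 genes for receptors and the R-spondin arm, 15 passed the filter, 5 fell and none rose, a called share of 33.3% against the 21.1% of all genes. At an unadjusted p below 0.05, 5 were lower and 1 was higher by edgeR's quasi-likelihood test, and DESeq2's Wald test called 4 lower and 0 higher, with no adjusted p for LGR4. The Frizzled receptor FZD2 had 16.1 and 19.5 CPM in OE-WT libraries against 32.2 and 29.8 CPM in CTRL, a log2 fold change of -0.80 (adjusted p = 3.05e-05). FZD7, another Frizzled, had a log2 fold change of -0.47 (adjusted p = 0.000503). The co-receptor LRP5 was the most abundant of the receptors that fell, with 181 and 199 CPM against 281 and 265 CPM and a log2 fold change of -0.53 (adjusted p = 1.06e-05).

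The relatives of LGR5 went the other way from LGR5. LGR6 had 2.31 and 3.92 CPM in OE-WT libraries against 11.2 and 11.8 CPM in CTRL, a log2 fold change of -1.88 (edgeR quasi-likelihood adjusted p = 1.89e-06). LGR4 had 14 and 17 counts in OE-WT libraries against 50 and 35 in CTRL, a log2 fold change of -1.12 (adjusted p = 0.0117 from the same test). The call of LGR4 rests on few counts and was lost without OE-WT replicate 1 (-1.004, adjusted p = 0.0727) and without CTRL replicate 1 (-0.88, adjusted p = 0.162). The R-spondin genes RSPO1, RSPO2, RSPO3 and RSPO4 did not pass the filter.

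Of 13 genes for secreted antagonists and the Kremen receptors that work with the DKK proteins, 4 passed the filter and all 4 were called lower. Over all genes tested the called share was 21.1%. With at least 10 counts required in every library, 3 were tested and all 3 were called lower. DKK1, KREMEN1 and KREMEN2 were called under every setting. DKK1, which blocks the LRP co-receptors and is itself a target of the pathway, had 16.2 and 18.5 CPM in OE-WT libraries against 41.8 and 42.8 CPM in CTRL. Its log2 fold change was -1.28 (SE 0.10, edgeR quasi-likelihood adjusted p = 1.94e-08). KREMEN1 and KREMEN2 had log2 fold changes of -0.49 (adjusted p = 0.000115) and -0.82 (adjusted p = 1.29e-05). NOTUM, named after its value was seen, had 14 and 9 counts in OE-WT libraries and 31 and 28 in CTRL, a log2 fold change of -1.03 (adjusted p = 0.0416). With at least 10 counts required in every library NOTUM was not tested, since OE-WT replicate 2 held 9. The call of NOTUM was lost with any 1 library left out (adjusted p 0.0583 to 0.286, log2 fold change -1.39 to -0.74) and with no filter beyond 1 count (adjusted p = 0.0548), and DESeq2 gave it no adjusted p.

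Inside the cell, Dishevelled and the destruction complex control β-catenin. CTNNB1, which encodes β-catenin, had 198.0 and 198.2 CPM in OE-WT libraries against 179.5 and 188.1 CPM in CTRL, a log2 fold change of 0.11 (edgeR quasi-likelihood adjusted p = 0.248). APC, the scaffold mutated in DLD1, had 25 and 16 counts in OE-WT libraries against 15 and 18 in CTRL, too few to detect a difference (log2 fold change 0.63, SE 0.36, adjusted p = 0.223). Of the 22 genes of this list, all tested, 1 rose and 4 fell, a called share of 22.7% that is close to the 21.1% of all genes. The genes that fell were DVL1 (log2 fold change -0.33, adjusted p = 0.00125), AXIN1 (-0.27, adjusted p = 0.0208) and the kinase genes CSNK1D (-0.29, adjusted p = 0.00264) and CSNK1G2 (-0.23, adjusted p = 0.0283). AMER1, which tethers the complex to the membrane, rose by 0.66 (adjusted p = 0.0277). Calls were lost for AXIN1 without OE-WT replicate 2 (-0.22, adjusted p = 0.139) or CTRL replicate 1 (-0.25, adjusted p = 0.105), and for AMER1 without OE-WT replicate 2 (0.51, adjusted p = 0.176) or CTRL replicate 2 (0.50, adjusted p = 0.177). CSNK1G2 lost its call without OE-WT replicate 1 (-0.18, adjusted p = 0.229), CTRL replicate 1 (-0.25, adjusted p = 0.0590) or CTRL replicate 2 (-0.21, adjusted p = 0.117), and under the replicate block (adjusted p = 0.0674). With DESeq2's Wald test the adjusted p was 0.156 for AXIN1, 0.182 for AMER1 and 0.179 for CSNK1G2. With no filter beyond 1 count it was 0.0589 for AMER1 and 0.0507 for CSNK1G2.

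Among nuclear partners, 16 of 17 genes passed the filter, 1 rose and 2 fell, a called share of 18.8% against the 21.1% of all genes. TCF7L2, which encodes TCF4, a main TCF factor of the intestine, had 42.2 and 44.7 CPM in OE-WT libraries against 40.7 and 37.8 CPM in CTRL, a log2 fold change of 0.15 (adjusted p = 0.242). SOX9, a crypt transcription factor, rose by 0.26 on the log2 scale (adjusted p = 0.0054), and with library size as the only scaling its adjusted p was 0.142. TCF7L1, the family member known as a repressor, had 11 and 8 counts in OE-WT libraries against 34 and 22 in CTRL, a log2 fold change of -1.22 (edgeR quasi-likelihood adjusted p = 0.0259). That call was lost without OE-WT replicate 1 (-1.48, adjusted p = 0.0532), OE-WT replicate 2 (-1.01, adjusted p = 0.159) or CTRL replicate 1 (-0.91, adjusted p = 0.306). TLE2, a co-repressor gene named after its value was seen, had 11 and 16 counts against 42 and 32, a log2 fold change of -1.12 (adjusted p = 0.0166). The call of TLE2 was lost without OE-WT replicate 1 (-0.89, adjusted p = 0.154) and without CTRL replicate 1 (-0.95, adjusted p = 0.154). DESeq2 gave no adjusted p for TCF7L1 and TLE2, and TCF7L1 was not tested with at least 10 counts required in every library. Across the TCF/LEF family, LEF1 was called higher, TCF7L1 lower, and TCF7 and TCF7L2 were not called.

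A last list held other genes known as Wnt targets in colorectal cells. Of 20, 16 passed the filter, 2 rose and 5 fell, and their median log2 fold change was -0.10. Their called share was 43.8%, against 40% for the 10 target and feedback genes and 21.1% for all genes. SLC12A2, which encodes an ion cotransporter, had 79.1 and 78.3 CPM in OE-WT libraries against 47.6 and 57.9 CPM in CTRL, a rise of 0.58 (edgeR quasi-likelihood adjusted p = 4.62e-05). CCND1, which encodes cyclin D1, rose by 0.24 (adjusted p = 0.0135). The call of CCND1 was lost with library size as the only scaling (adjusted p = 0.205), without OE-WT replicate 1 (0.19, adjusted p = 0.104) and without CTRL replicate 1 (0.17, adjusted p = 0.173). CD44, an adhesion receptor, fell from 155.2 and 135.0 CPM in CTRL to 75.5 and 90.4 CPM in OE-WT libraries (log2 fold change -0.81, adjusted p = 6.78e-07). JUN (-0.57, adjusted p = 1.64e-05), BAMBI (-0.53, adjusted p = 0.00184), EPHB3 (-0.38, adjusted p = 0.00241) and PPARD (-0.37, adjusted p = 0.0288) fell as well. The value of BAMBI depended on the OE-WT library, at -0.32 without OE-WT replicate 1 (adjusted p = 0.0457) and -0.80 without OE-WT replicate 2 (adjusted p = 9.52e-09). PPARD lost its call without OE-WT replicate 1 (-0.22, adjusted p = 0.340), without CTRL replicate 1 (-0.35, adjusted p = 0.0916), with DESeq2's Wald test (0.178) and with no filter beyond 1 count (0.0583). SMOC2 and OLFM4 had 0 counts in every library and, like MMP7, did not pass the filter.

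**Figure D5:**
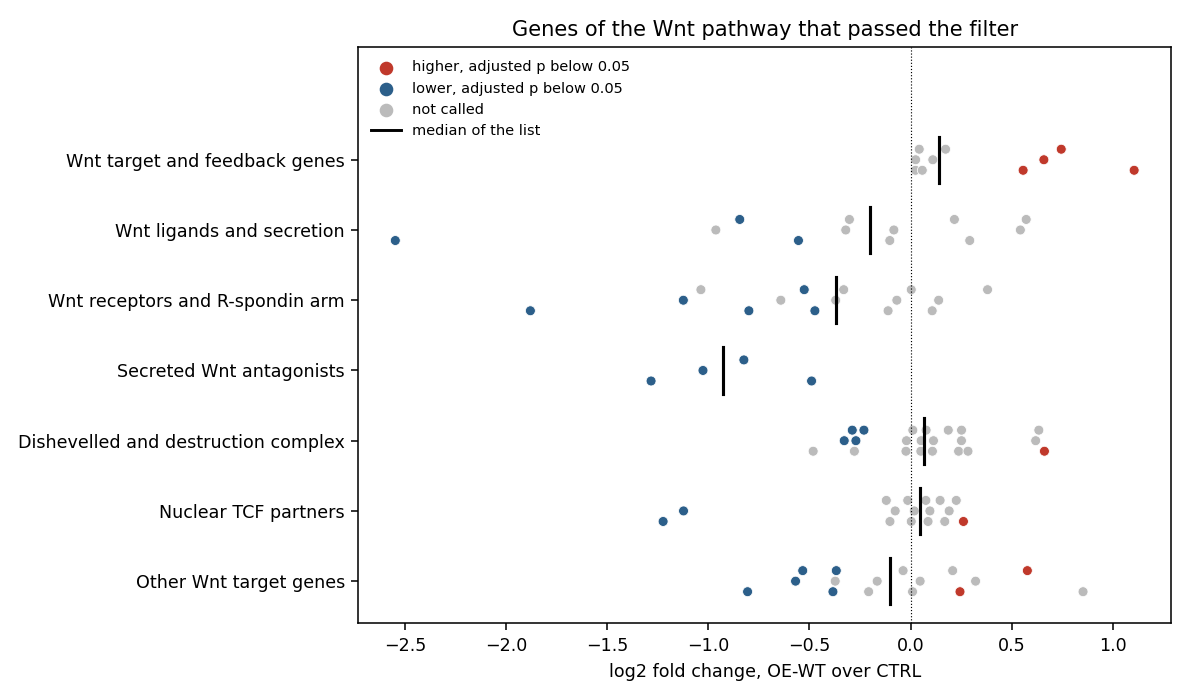
Log2 fold change, OE-WT over CTRL, of every gene that passed the filter in the 10 target and feedback genes and in 6 other lists of the pathway. Red and blue points have an adjusted p below 0.05, and black bars are medians. Called genes lie on the right in the top row, and on the left in the rows of ligands, receptors and antagonists.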

How the data were processed

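RNA sequencing counts of DLD1 cells, 2 OE-WT and 2 CTRL libraries, were analysed. The 10 genes and the pathway lists were chosen with earlier results of these data known. The authors trimmed reads with Cutadapt and aligned them to GRCh38 with HISAT2. The counter is HTSeq in the paper's methods and featureCounts 2.0.0 in the submitters' processing notes, and the methods describe 3 replicates and removal of ribosomal RNA, whereas the labels describe 2 and selection of poly(A) RNA. The deposited values are raw counts per gene, 1 column per library. GENCODE release 44 on GRCh38 gave symbols for 57532 of 58302 rows, with coordinates and exon lengths, and promoter windows came from RefSeq.

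edgeR 4.0.16 in R 4.3.3 was run without a replicate block, with its filter by group (minimum count 10), TMM scaling and the quasi-likelihood test. Standard errors (SE) are the log2 fold change over the square root of F, and 95% intervals use its t distribution. CPM use TMM-scaled library sizes. A count of 0 allows up to 3 counts, or 0.233 to 0.302 CPM, for counting error only. An exact two-sided permutation test of 2 against 2 libraries cannot go below p = 0.333. Alternatives were RLE factors, scaling by library size alone, the Wald test of DESeq2 1.42.0, a likelihood ratio test in edgeR, 2 other filters, a replicate block and each library left out, where the lone library of an arm is assumed to vary like the others. Named genes are the 10, TRMT6, TRMT61A, 6 core pathway genes, and in each list up to 5 called per direction with a mean of at least 50 counts. Figures used Python 3.11.15 and matplotlib 3.10.9.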

Additional observations from a re-analysis of the deposited data

How the results depend on the processing

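Of the 10 genes, 4 were called higher and 0 lower under every alternative except DESeq2's Wald test, which called 3 higher. Without OE-WT replicate 2 the 4 included AXIN2 and not NKD1. Values near 0 changed sign with library size only: RNF43 (-0.034), ZNRF3 (-0.067), TCF7 (-0.049) and MYC (-0.065), none of them called. With each library left out, log2 fold changes ranged from -0.0054 to 0.11 for RNF43, -0.024 to 0.066 for ZNRF3, -0.051 to 0.13 for TCF7, -0.27 to 0.54 for APCDD1 and -0.030 to 0.082 for MYC. Over all genes, 1334 were higher and 1642 lower. Library size only gave 735 higher and 2448 lower (23.1% higher against 44.8%), DESeq2 522 and 855, and no filter beyond 1 count 844 higher among 26095 genes tested. Leaving out a library gave 764 to 1231 higher. The causes were not tested.

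In the lists, DESeq2 called 0 ligand genes lower (against 3), 0 and 2 destruction complex genes higher and lower (against 1 and 4) and 0 nuclear partners lower (against 2). DESeq2 gave no adjusted p for WNT4, LGR4, NOTUM, TCF7L1 and TLE2, so these are not lost calls. It gave none for APCDD1 and APC either, which were not called in the main fit. Library size only called 0 nuclear partners and 1 other target higher (against 1 and 2). The likelihood ratio test called 1 receptor gene higher (against 0), the filter of 10 counts in every library called 1 nuclear partner lower, and no filter beyond 1 count called 0 destruction complex genes higher. With each library left out, 1 to 3 ligand genes, 2 to 4 destruction complex genes and 0 to 2 nuclear partners were lower, and 0 to 1 destruction complex genes and 1 to 2 other targets were higher. Of the 24 other named genes called, 14 were called under all 11 settings and none changed sign.

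Whether same-numbered libraries shared a culture or preparation is not given in the sources used here. Their deviations from the group means had a correlation of -0.0681 across genes, which cannot decide this with 2 libraries per group. The replicate block called the same 4 of the 10 genes higher and changed the call of CSNK1G2 among the other named genes. Over all genes it called 1145 higher and 1513 lower. Depth limits APCDD1, APC, LGR4 and TCF7L1.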
